A study of Saccharomyces cerevisiae with 10 samples.

Results

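Transcript levels of the budding yeast (Saccharomyces cerevisiae) mutation-accumulation lines MA-A3 and MA-A8 were compared on dual-colour spotted arrays. The series holds 10 arrays of 5 lines, and 7 of the 10 arrays carry this comparison: 1 array with both lines, and 6 arrays that pair MA-A3 or MA-A8 with MA-A0, MA-A1 or MA-A4. Each array set total RNA of a Cy5-labelled line against that of a Cy3-labelled line, with dendrimer labelling, so that each line lay on 4 arrays, 2 per dye. The groups are MA-A3, then the linking lines MA-A0, MA-A1 and MA-A4, then MA-A8. All 5 are mutation-accumulation lines, and the labels used here give no ancestor, genotype, medium or growth stage. A difference between lines therefore does not show which line had changed. Whether a line was grown more than once for its 4 hybridisations is not given in the labels, so errors and p-values measure only the spread between hybridisations, which may be technical. The pair had been picked out in earlier results on the same arrays as the extremes for stress genes, so the counts of stress genes given here are a description of the pair.

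In mutation accumulation a strain is carried through repeated bottlenecks of very few cells, so that new mutations are kept with little selection. The general stress response of budding yeast is a broad set of genes switched on together by heat, starvation, osmotic and oxidative stress, largely through the transcription factors Msn2 and Msn4, and held down during fast growth by protein kinase A and TOR signalling. It includes small protective proteins, antioxidant enzymes and the enzymes that make and break down the storage carbohydrates trehalose and glycogen. Iron uptake (Aft1), phosphate uptake (Pho4) and amino acid synthesis (Gcn4) are run by separate regulators.

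Values were taken to be log2 of Cy5 over Cy3, although neither the base nor the direction is stated in the deposited table. The direction is the likely one, because the labels name the Cy5 line first on every array, but if it is wrong all signs turn. An array is written here as its Cy5 line and its Cy3 line, as in MA-A8/MA-A3 for the direct array. Base 10 was set aside, since the ratio of a pair of 16-bit scanner values cannot exceed 4.82 on that scale if both are at least 1, and the lowest value was -5.54. Natural logarithms were not set aside, so folds are given as folds if the base is 2. Positive differences are higher in MA-A3. The difference between MA-A3 and MA-A8 can be read along 4 routes that share no array: the direct array with its sign turned, and the sums or differences of 2 arrays that pass through MA-A0, MA-A1 or MA-A4. The fit joins all 10 arrays with a term for dye, and its standard errors (SE) are given after each difference.

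The MA-A0/MA-A8 array was examined by itself. Across 5143 genes with values on every array involved, it correlated with the same difference read through MA-A3 at -0.41, through MA-A1 at -0.33 and through MA-A4 at 0.17. By the layout of the dyes, the readings through MA-A3 and MA-A1 carry the dye effect with the sign opposite to that array. The reading through MA-A4 carries it with the same sign. The signs of these correlations therefore cannot be told apart from the dye effect. The route through MA-A0 uses the MA-A0/MA-A8 array and carries the dye effect of both of its arrays. It correlated with the direct array at 0.31, against 0.67 for the route through MA-A1 and 0.64 for the route through MA-A4 (5385 genes). With the dye effect removed, as fitted on the same arrays, the route through MA-A0 correlated with the direct array at 0.69. The same removal lowered the correlation of the direct array with the route through MA-A1 to 0.66 and with that through MA-A4 to 0.55. With the sign of MA-A0/MA-A8 turned instead, the route through MA-A0 correlated with the direct array at 0.53. With values read as Cy5 over Cy3, that turn also cancels the dye effect between the 2 arrays of the route. The 0.53 therefore cannot be read apart from the dye effect. Whether the lines or dyes of MA-A0/MA-A8 are recorded the other way round was not settled here. Counts are also given without this array, and for some lists with its sign turned.

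Of 5415 genes tested, 983 (18.2%) differed between MA-A3 and MA-A8 at an adjusted p under 0.05 (limma's moderated test with Benjamini-Hochberg adjustment over all genes tested, used throughout), and 1610 did at an unadjusted p under 0.05. Transcripts of 583 genes (10.8%) were higher in MA-A3 and those of 400 genes (7.39%) were lower. The median size of a passing difference was 0.59, and 124 genes differed by over 1, of which 68 were higher and 56 lower. Chromosome XIII held 301 of the genes that were higher and 11 of those that were lower. Among the 4988 genes tested on other chromosomes 282 (5.65%) were higher and 389 (7.8%) were lower. All 4 routes had the same sign for 884 of the 981 passing genes that had a value on each, a share of 90.1%, against 33.8% of all 5385 genes with a value on each. The fit uses these same arrays, so this is a description of it. The count of passing genes was 1038 without MA-A0/MA-A8 (643 higher, 395 lower) and 833 when that array's sign was turned (515 higher, 318 lower). It was 457 without the direct array and 653 without MA-A3/MA-A0. The 400 genes that were lower became 215 without the direct array, 238 without MA-A8/MA-A1, 235 without MA-A3/MA-A0 and 245 without MA-A3/MA-A1.

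A fit of the other 9 arrays gives a reading that does not use the direct hybridisation. It passed 457 genes (8.44%), 242 higher and 215 lower in MA-A3, and 450 of the 457 (98.5%) had the same sign on the direct array, against 70.1% of all genes. Outside chromosome XIII the signs matched for 310 of 317. The passing genes had a median absolute difference of 0.80 on the direct array and 0.84 in the fit of the other 9. Across 5410 genes the direct array correlated with the other 9 at a Pearson r of 0.73 and a Spearman rho of 0.63, with a slope of 0.76. Pearson's r was 0.75 with the sign of MA-A0/MA-A8 turned. With chromosomes IX, XI, XII and XIII left out, the chromosomes with shifts in some line in earlier results on these arrays, Pearson's r was 0.68 over 4119 genes. These correlations are across genes, which are not independent replicates, and both sides share the probes and the lines.

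**Figure D1:**
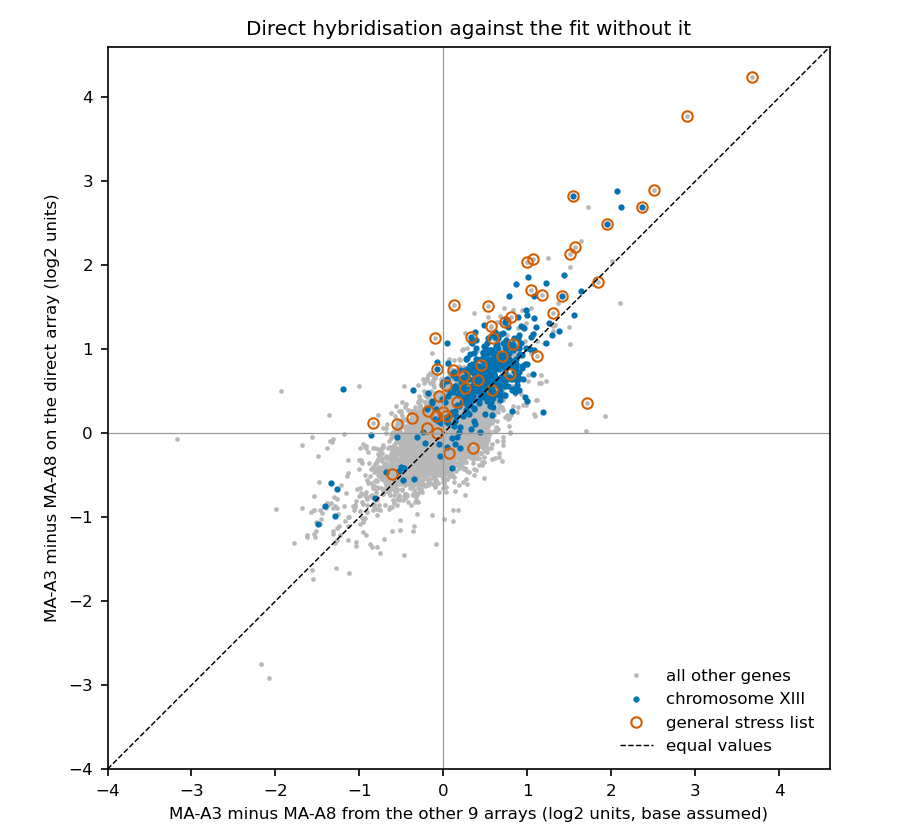
Difference MA-A3 minus MA-A8 of each of 5410 genes from the fit of the other 9 arrays (x axis) and on the direct array (y axis), in log2 units with the base assumed. Blue points are genes of chromosome XIII, orange circles are members of the general stress list, and the dashed line marks equal values; most genes that lie far from 0 do so with the same sign on both axes, with HSP12 at 3.67 on the x axis and 4.24 on the y axis.

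HSP12, the gene of a small protein that binds membranes in stressed and starved cells, had the largest difference of the genes measured on all 10 arrays. On the array with MA-A8 in Cy5 and MA-A3 in Cy3 its log ratio was -4.24. With MA-A3 in Cy5 the ratio was 1.78 over MA-A0 and 2.39 over MA-A1, and for MA-A4 in Cy5 over MA-A3 it was -2.05. On the arrays of MA-A8 the ratio was 1.51 for MA-A0 over MA-A8, 1.35 for MA-A4 over MA-A8 and -1.85 for MA-A8 over MA-A1. MA-A3 had the higher level on each of its 4 arrays and MA-A8 the lower level on each of its own. The 4 routes gave 4.24 directly, 3.29 through MA-A0, 4.24 through MA-A1 and 3.40 through MA-A4, and the fit gave 3.88 ± 0.22 (adjusted p = 2.283e-07), which would be 14.7-fold with a base of 2.

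DDR2, a gene induced by many stresses and by DNA damage, gave 3.78, 2.89, 2.63 and 3.16 on the direct route and the routes through MA-A0, MA-A1 and MA-A4, with a fitted difference of 3.25 ± 0.22 (adjusted p = 5.037e-07). YGP1, which encodes a secreted glycoprotein made when nutrients run short, gave 2.90, 2.20, 2.35 and 2.61 in the same order and a fitted 2.59 ± 0.17. MSC1, a general stress gene on chromosome XIII, gave 2.70, 2.73, 1.87 and 2.62 and a fitted 2.52 ± 0.16. All 4 routes of these genes were far above 0. HOR7, a gene induced by high osmolarity, was 2.25 ± 0.23 higher in MA-A3, with routes between 1.90 and 2.49. SPI1, which encodes a cell wall protein of stationary phase, was 1.91 ± 0.16 higher, and PIC2, which encodes a mitochondrial carrier of copper and phosphate, was 1.84 ± 0.14 higher. GAD1, the glutamate decarboxylase gene, was 2.03 ± 0.21 higher, but its direct value of 2.82 lay well above the 1.34, 1.32 and 1.87 of the routes through MA-A0, MA-A1 and MA-A4.

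Of the 50 measured genes of the general stress list, 30 were higher in MA-A3 (60%, against 10.8% of all genes tested), 1 was lower and 19 did not pass. The median difference over the list was 0.71, against 0.02 over all genes tested, and by route the list's median was 0.92 on the direct array, 0.65 through MA-A0, 0.39 through MA-A1 and 0.67 through MA-A4. Outside chromosome XIII 23 of 42 were higher and 1 was lower (54.8% and 2.38%, against 5.65% and 7.8% of all genes there), with a median of 0.65. Among those higher were CTT1, the cytosolic catalase gene (1.41 ± 0.15), and FMP16, a gene of a mitochondrial protein (1.74 ± 0.15). HSP26 and HSP42, which encode the small heat shock proteins that bind unfolded proteins, were higher by 1.06 ± 0.20 and 0.81 ± 0.22. The gene that was lower was TRX2, which encodes a thioredoxin (-0.50 ± 0.13). Of the members that did not pass, HSP104, the disaggregase gene, had -0.25 ± 0.22 and SSA4, the stress-induced Hsp70 gene, had -0.04 ± 0.41 with routes between -1.49 and 1.85. The count of 30 was 31 without MA-A0/MA-A8 and 19 without the direct array. The list shares 3 genes with the list of oxidative stress genes and 2 with that of cell wall genes.

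**Figure D2:**
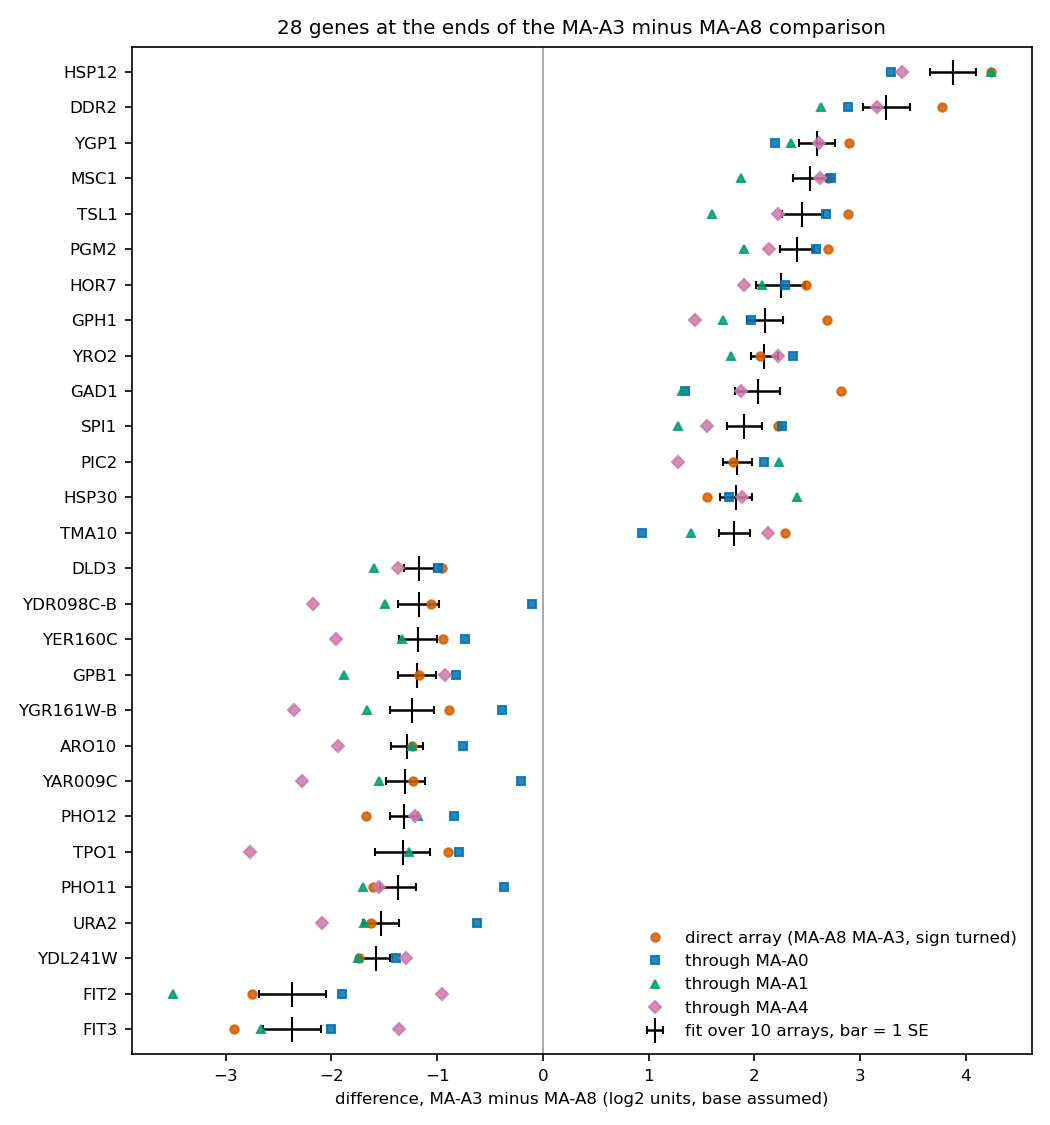
Difference MA-A3 minus MA-A8 (x axis, log2 units, base assumed) of the 14 genes with the largest positive and the 14 with the largest negative passing difference. Coloured symbols are the 4 routes that share no array, and black marks are the fit over 10 arrays with a bar of 1 SE; these genes were required to have the same sign on all routes, and the values spread most for FIT2, whose routes run from -3.50 to -0.95.

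Of 20 measured members of the trehalose and glycogen list, which holds genes of storage carbohydrates, 13 were higher in MA-A3 (65%, against 10.8% of all genes tested) and none was lower, with a median of 0.73. Outside chromosome XIII 10 of 17 were higher (58.8%, against 5.65% of all genes there), with a median of 0.51. TSL1, a regulatory subunit of the trehalose synthase complex, gave 2.89, 2.68, 1.60 and 2.22 on the direct route and through MA-A0, MA-A1 and MA-A4, and a fitted 2.46 ± 0.20. PGM2, the phosphoglucomutase that supplies glucose 1-phosphate, gave 2.70, 2.58, 1.90 and 2.14 and a fitted 2.40 ± 0.16. GPH1, the glycogen phosphorylase gene, gave 2.69, 1.97, 1.70 and 1.44 and a fitted 2.10 ± 0.17. The glycogen synthase genes GSY2 and GSY1 were higher by 0.92 ± 0.15 and 0.82 ± 0.13, and GLC3, the branching enzyme gene, by 0.96 ± 0.12. TPS2 and TPS3, which encode further subunits of the trehalose synthase complex, were higher by 1.16 ± 0.14 and 1.06 ± 0.13. Genes of synthesis and of breakdown thus both lay on the higher side. TPS1, the catalytic subunit of that complex, did not pass (0.64 ± 0.32): its routes were 1.13, 1.28 and 0.62, but -0.98 through MA-A4. Without MA-A0/MA-A8 the list had 12 members higher.

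Genes outside the lists were also among the largest differences. YRO2, which encodes a plasma membrane protein of the HSP30 family, was 2.09 ± 0.13 higher in MA-A3, with routes of 2.05, 2.37, 1.78 and 2.22. HSP30 itself, whose product restrains the plasma membrane proton pump under stress, was 1.83 ± 0.15 higher, and TMA10, which encodes a protein that associates with ribosomes, was 1.81 ± 0.14 higher. The routes of TMA10 were 2.29, 0.94, 1.40 and 2.13.

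Of 25 measured heat shock chaperone genes, cytosolic and mitochondrial, 9 were lower in MA-A3 (36%, against 7.39% of all genes tested) and 1, APJ1, was higher (0.55 ± 0.15), with a median of -0.42. CPR6, a cyclophilin that works with Hsp90, gave -0.58, -1.79, -1.36 and -0.91 on the direct route and through MA-A0, MA-A1 and MA-A4, and a fitted -1.04 ± 0.23 (adjusted p = 0.0063). STI1, the Hsp70-Hsp90 adaptor gene, was -1.02 ± 0.24, SSE1, an Hsp110 gene, -0.79 ± 0.15, and SSC1, the mitochondrial Hsp70 gene, -0.64 ± 0.14. All routes of these 4 genes were below 0. The count of 9 was 7 without MA-A0/MA-A8, 4 without MA-A8/MA-A1, 5 without MA-A3/MA-A0 and 4 without MA-A3/MA-A1, with medians between -0.40 and -0.31, and it was 4 with the sign of MA-A0/MA-A8 turned. Among the 19 oxidative stress genes 3 were higher and 3 lower (15.8% each, against 10.8% and 7.39% of all genes tested), with CTT1 at one end and YHB1, the flavohaemoglobin gene, at the other (-0.57 ± 0.13). Without the direct array 2 were higher and 0 lower (limma, 5 lower at an unadjusted p under 0.05), and YHB1 did not pass (adjusted p = 0.0983).

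The fit also places the other 3 lines between or beside the pair. With MA-A8 at 0, HSP12 stood at 3.88 in MA-A3, 2.17 in MA-A0, 1.44 in MA-A1 and 1.45 in MA-A4, each ± 0.22, and each of the 4 lines differed from MA-A8. MA-A1 and MA-A4 differed by less than their errors. DDR2 stood at 3.25 in MA-A3, 0.92 in MA-A0, 0.92 in MA-A1 and 0.57 in MA-A4, each ± 0.22, and for it only MA-A3 passed against MA-A8. YGP1 stood at 2.59 in MA-A3 and at 0.30, 0.06 and -0.08 in MA-A0, MA-A1 and MA-A4, each ± 0.17, and none of these 3 lines passed against MA-A8. GPH1 stood at 2.10 in MA-A3, 1.24 in MA-A0, 0.65 in MA-A1 and 1.09 in MA-A4, each ± 0.17.

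MA-A3 and MA-A8 were each set against the mean of MA-A0, MA-A1 and MA-A4 in the same fit. MA-A3 differed from that mean in 776 genes (14.3%), 522 higher and 254 lower, and the mean differed from MA-A8 in 26 genes (0.48%), 12 higher and 14 lower than MA-A8. At an unadjusted p under 0.05 (limma) the counts were 1345 and 659, so the gap between the 2 sides was smaller there. Both contrasts share the 3 lines, so a gene's values on the 2 sides are not independent. Of the 983 genes that differed between MA-A3 and MA-A8, 635 passed on the MA-A3 side, 24 on the MA-A8 side, 10 on both and 334 on neither. MA-A3 and MA-A8 were the extreme lines for 494 of the 983 (50.3%), against 17.7% of all genes tested. The 983 were picked by their difference between these lines in the same fit, so a larger share follows from the choice. Of the 30 general stress genes higher in MA-A3, 27 passed on the MA-A3 side and 3 on the MA-A8 side, and 16 had MA-A3 as the highest and MA-A8 as the lowest line. These 30 were picked in the same way, so their counts are a description. Over all 50 measured general stress genes the median was 0.71 between MA-A3 and the mean of the 3 lines, but 0.04 between that mean and MA-A8. The list as a whole thus set MA-A3 apart, and not MA-A8. For the trehalose and glycogen list the 2 medians were close, at 0.355 on the MA-A3 side and 0.304 on the MA-A8 side. Among the few genes that passed on the MA-A8 side, HSP12 was lower in MA-A8 than the mean of the 3 lines by 1.69 ± 0.18 (adjusted p = 0.00087), GPH1 by 0.99 ± 0.14, HXK1, a hexokinase gene, by 0.96 ± 0.17 and PGM2 by 0.70 ± 0.13. Among the 14 genes on which MA-A8 was the higher, FIT3 stood at -1.30 ± 0.22 and HUG1, a gene induced by DNA damage, at -0.94 ± 0.14.

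**Figure D3:**
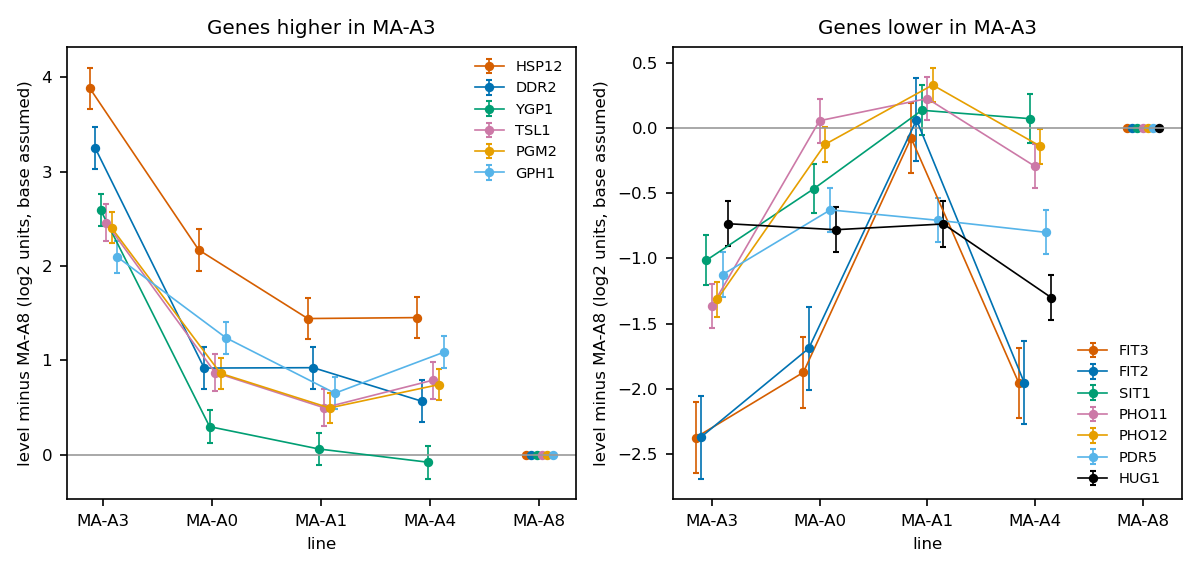
Fitted level of 13 genes in each line relative to MA-A8 (y axis, log2 units, base assumed), with the lines on the x axis in the order MA-A3, MA-A0, MA-A1, MA-A4, MA-A8 and bars of 1 SE. On the left HSP12 and GPH1 lie above 0 in the other 3 lines as well, while YGP1 is close to 0 there; on the right FIT2 and FIT3 are low in MA-A3, MA-A0 and MA-A4 and near 0 in MA-A1.

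The largest differences in the other direction were those of FIT3 and FIT2, neighbouring genes of cell wall mannoproteins that help retain iron bound to siderophores. FIT3 had a ratio of 2.92 for MA-A8 over MA-A3 on the direct array, and its routes were -2.92, -2.0, -2.67 and -1.36 directly and through MA-A0, MA-A1 and MA-A4. The fit gave -2.37 ± 0.27 (adjusted p = 5.66e-05), 5.18-fold lower in MA-A3 if the base is 2. FIT2 gave -2.75, -1.90, -3.50 and -0.95 and a fitted -2.37 ± 0.32. With MA-A8 at 0, FIT3 stood at -2.37 in MA-A3, -1.87 in MA-A0, -0.08 in MA-A1 and -1.96 in MA-A4, so that MA-A1 and MA-A8 lay together above the other 3 lines. Of 29 measured genes of the iron regulon 9 were lower in MA-A3 (31.0%, against 7.39% of all genes tested) and 3 higher, with a median of -0.12. Besides FIT1, FIT2 and FIT3, those lower were the siderophore transporter genes ARN1, ARN2, SIT1 and ENB1, TIS11, which encodes an mRNA-degrading protein of iron shortage, and CCC2, a copper transporter gene needed for iron uptake. SIT1 was -1.01 ± 0.19 and ARN2 -1.17 ± 0.25. The ferric reductase gene FRE1 and the iron permease gene FTR1 did not pass (0.17 ± 0.15 and 0.09 ± 0.15). Those higher were ISU1, FET4 and VHT1 (0.63 ± 0.13, 0.58 ± 0.13 and 0.42 ± 0.12). Without MA-A0/MA-A8 9 were lower and 3 higher, and turning that array's sign gave 5 lower and 3 higher. Without the direct array 8 were lower and 1 higher.

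In the phosphate regulon, 10 of 21 measured genes were lower in MA-A3 (47.6%, against 7.39% of all genes tested), 2 were higher and 9 did not pass, with a median of -0.35. PHO11 and PHO12, which encode near-identical secreted acid phosphatases that the probes may not tell apart, were -1.37 ± 0.17 and -1.31 ± 0.13. The routes of PHO12 were -1.67, -0.84, -1.18 and -1.21 directly and through MA-A0, MA-A1 and MA-A4, and those of PHO11 were -1.61, -0.37, -1.70 and -1.55. The high-affinity sodium-phosphate symporter gene PHO89 was -1.09 ± 0.16, and SPL2, which restrains the low-affinity phosphate transporters, was -1.08 ± 0.16. Genes of the complex that makes polyphosphate, VTC1, VTC3 and VTC4, were lower, between -0.92 and -0.72. PHO84, the main high-affinity transporter gene, did not pass (-0.35 ± 0.12, adjusted p = 0.068). PHM8, which encodes a phosphatase of lysophosphatidic acid and nucleotides, went the other way at 1.42 ± 0.13, with routes between 1.29 and 1.55, and PHM7 was 0.56 ± 0.17. For PHO11 and PHO12 the levels in MA-A0, MA-A1 and MA-A4 lay between -0.29 and 0.33 of MA-A8, so that MA-A3 lay alone below the other 4 lines. Without MA-A0/MA-A8 9 members were lower and 2 higher.

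Of 56 measured Gcn4 targets of amino acid synthesis 24 were lower in MA-A3 (42.9%, against 7.39% of all genes tested), 1 was higher and 31 did not pass, with a median of -0.33. GDH1, the glutamate dehydrogenase that assimilates ammonium, gave -0.88, -1.18, -1.04 and -1.12 on the direct route and through MA-A0, MA-A1 and MA-A4, and a fitted -1.02 ± 0.11. ARG4, the argininosuccinate lyase gene, was -0.90 ± 0.13, and LYS1, which encodes the last enzyme of lysine synthesis, was -0.91 ± 0.14. The remaining passing genes lay in the lysine, histidine, tryptophan, aspartate and branched-chain pathways, among them HIS4 at -0.79 ± 0.14 and TRP5 at -0.72 ± 0.14. SER3, of serine synthesis, was the higher gene (0.64 ± 0.18). The count of 24 was 22 without MA-A0/MA-A8 and 15 without the direct array. URA2, which encodes the first enzymes of pyrimidine synthesis, was -1.53 ± 0.17, and ARO10, which encodes a decarboxylase of aromatic amino acid breakdown, was -1.28 ± 0.15.

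Of 20 genes of nitrogen-regulated permeases 6 were higher in MA-A3, 1 was lower and 13 did not pass (30% and 5%, against 10.8% and 7.39% of all genes tested). TAT2, the tryptophan permease gene, was at 0.50 ± 0.12 and the branched-chain permease genes BAP2 and BAP3 at 0.50 ± 0.14 and 0.50 ± 0.15. The 6 became 5 without MA-A0/MA-A8, 0 without the direct array (limma, 4 higher at an unadjusted p under 0.05), 1 without MA-A3/MA-A0, 2 without MA-A8/MA-A1 and 2 without MA-A3/MA-A1. In sulphur metabolism 3 of 22 were higher and 1 lower (13.6% and 4.55%, against 10.8% and 7.39% of all genes tested). The methionine permease genes MUP1 and MUP3 were 0.97 ± 0.14 and 0.71 ± 0.15, and MET22 was the lower gene (-0.58 ± 0.12). Without the direct array 1 was higher and 0 were lower (limma, 2 lower at an unadjusted p under 0.05), and MUP3 and MET22 did not pass (adjusted p = 0.089 and 0.0625).

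HXT2, a high-affinity glucose transporter gene on chromosome XIII, gave 1.41, 2.41, 0.87 and 1.71 on the 4 routes and a fitted 1.56 ± 0.16. HXT1, the low-affinity transporter gene, was 0.89 ± 0.17 and HXT7 0.64 ± 0.12; HXT6 and HXT7 are near-identical copies. In all, 5 of 25 genes of hexose transport and glucose sensing were higher, 1, HXT9, was lower and 19 did not pass (20% and 4%, against 10.8% and 7.39% of all genes tested). With the sign of MA-A0/MA-A8 turned 3 were higher. Of 23 glycolytic and fermentative genes 8 were lower (34.8%, against 7.39% of all genes tested), 1, ALD6, was higher and 14 did not pass, with a median of -0.55. ADH5, an alcohol dehydrogenase gene, was -0.73 ± 0.13, and ENO1, an enolase gene, -0.65 ± 0.14. GPM1, the phosphoglycerate mutase gene, gave -1.0 on the direct route, -1.40 through MA-A1 and -1.73 through MA-A4, but 0.80 through MA-A0. The same split held for the list, whose median was -0.70, -1.02 and -1.12 on those 3 routes and 0.96 through MA-A0. No dye effect is removed from these route values. It adds up on the route through MA-A0 and cancels on those through MA-A1 and MA-A4, so the split cannot be told apart from it. Leaving out MA-A0/MA-A8 gave 14 lower genes and a median of -0.80, and turning its sign gave 15 lower genes. The 8 became 1 without the dye term, 5 without the direct array, 5 without MA-A4/MA-A8, 3 without MA-A8/MA-A1 and 3 without MA-A3/MA-A1. Gluconeogenesis and the glyoxylate cycle had 1 of 22 lower (4.55%, against 7.39% of all genes tested) and none higher.

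Of 45 measured genes of oxidative phosphorylation 16 were higher in MA-A3 (35.6%, against 10.8% of all genes tested) and 1, the anaerobic ADP/ATP carrier gene AAC3, was lower, with a median of 0.33. Outside chromosome XIII 10 of 39 were higher (25.6%, against 5.65% of all genes there), with a median of 0.27. NDE1, which encodes an external NADH dehydrogenase of mitochondria, gave 1.69, 1.52, 1.54 and 1.60 on the direct route and through MA-A0, MA-A1 and MA-A4 and a fitted 1.61 ± 0.15. NDI1, the internal NADH dehydrogenase gene, was 1.19 ± 0.13, and both genes lie on chromosome XIII. STF2, whose product was described as a stabilising factor of ATP synthase, lies on chromosome VII and was 1.36 ± 0.15. RIP1, the Rieske protein gene of complex III, was 0.78 ± 0.13. The count of 16 was 23 without MA-A0/MA-A8, 9 after turning its sign and 7 without the direct array. In the TCA cycle list 2 of 25 genes were higher and 3 lower (8% and 12%, against 10.8% and 7.39% of all genes tested), with the fumarase gene FUM1 at -0.65 ± 0.16. The 2 higher became 5 without MA-A0/MA-A8. They became 0 without the direct array, MA-A8/MA-A1, MA-A3/MA-A0 or MA-A3/MA-A1, each left out alone (limma, with 0, 3, 2 and 4 higher at an unadjusted p under 0.05). The 3 lower became 0 without MA-A8/MA-A1 and without MA-A3/MA-A1 (limma, 5 and 3 at an unadjusted p under 0.05). Of 63 mitochondrial ribosomal protein genes 11 were higher (17.5%, against 10.8% of all genes tested) and none lower, with a median of 0.23. Of the 11, 6 lie on chromosome XIII, led by MRPL33 at 0.91 ± 0.12, and elsewhere 5 of 56 were higher (8.93%, against 5.65% of all genes outside chromosome XIII). The 11 became 17 without MA-A0/MA-A8, 5 without the direct array and 6 without MA-A8/MA-A1, MA-A3/MA-A0 or MA-A3/MA-A1, each left out alone.

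Of 127 cytosolic ribosomal protein genes 2 were higher in MA-A3, 1 was lower and 124 did not pass (1.57% and 0.79%, against 10.8% and 7.39% of all genes tested), and the median was 0.01. By route that median was -0.24 on the direct array, -0.16 through MA-A1 and -0.47 through MA-A4, but 1.13 through MA-A0. These route values hold the dye effect, which adds up through MA-A0 and cancels through MA-A1 and MA-A4. The fitted median was -0.09 without MA-A0/MA-A8, with 4 higher and 3 lower. Turning that array's sign gave a median of -0.27, with 1 higher and 6 lower. The median was -0.05 without the direct array, with 0 higher (limma, 3 at an unadjusted p under 0.05) and 1 lower, -0.08 without MA-A3/MA-A0, and 0.13 without MA-A4/MA-A8, with 10 higher. RPL22B was 0.74 ± 0.16 and RPS28A -0.56 ± 0.13. In ribosome biogenesis 5 of 90 genes were higher and 2 lower (5.56% and 2.22%, against the same 10.8% and 7.39%), and 4 of the 5 higher lie on chromosome XIII, RRP5 among them (0.86 ± 0.14). The 2 lower became 0 without the direct array (limma, 4 at an unadjusted p under 0.05). Polymerase I and III genes had 2 of 24 higher and 2 lower (8.33% each, near the shares of all genes tested), and 1 and 0 without the direct array (limma, 1 lower at an unadjusted p under 0.05). Proteasome genes had 1 of 34 higher, RPN4, the transcription factor of the proteasome (0.60 ± 0.15), and 3 lower (2.94% and 8.82%, against 10.8% and 7.39% of all genes tested). Without the direct array both counts were 0 (limma, 0 higher and 7 lower at an unadjusted p under 0.05), with RPN4 at 0.34 (adjusted p = 0.3094). The 3 lower also became 0 without MA-A3/MA-A1 (limma, 7 at an unadjusted p under 0.05).

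Histone genes were higher in the fit in 7 of 10 cases (70%, against 10.8% of all genes tested), with a median of 0.53. HHF1, a histone H4 gene, gave 0.23 directly, 0.54 through MA-A1 and 0.52 through MA-A4, but 3.42 through MA-A0. HTA1, a histone H2A gene, gave 0.40, 1.56, 1.31 and 0.73 on the direct route and through MA-A0, MA-A1 and MA-A4 and a fitted 0.88 ± 0.16. The median of the list was 1.67 through MA-A0 and between 0.14 and 0.47 on the other 3 routes. The dye effect was not removed from these route values, and it adds up on the route through MA-A0. The gap between that route and the others cannot be told apart from it. Without MA-A0/MA-A8 7 members were higher and the median was 0.46. With all arrays but without the dye term 1 was higher, and with the sign of MA-A0/MA-A8 turned 0 were (limma, 1 at an unadjusted p under 0.05). The count was 3 without the direct array and 4 without MA-A3/MA-A0. Copies of a histone type are near-identical in sequence and may not be told apart.

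In ergosterol synthesis 8 of 29 genes were lower and 3 higher (27.6% and 10.3%, against 7.39% and 10.8% of all genes tested). The 3 that were higher (ERG5, ERG8 and HMG1) all lie on chromosome XIII. Elsewhere 8 of 22 were lower (36.4%, against 7.8% of all genes outside chromosome XIII) and none higher, with a median of -0.32. ERG28, which encodes a scaffold of the sterol demethylation enzymes, was -1.01 ± 0.14, and ERG26, one of those enzymes, -0.87 ± 0.14. The 8 became 7 without MA-A0/MA-A8, 4 without the dye term, 2 without the direct array, 5 without MA-A8/MA-A1, 4 without MA-A3/MA-A0 and 4 without MA-A3/MA-A1. Of 18 drug efflux genes 4 were higher and 4 lower (22.2% each, against 10.8% and 7.39% of all genes tested), and without the direct array 3 were higher and 2 lower. PDR5, the main multidrug pump gene, was -1.12 ± 0.17, and TPO1, a polyamine exporter gene, was -1.33 ± 0.26, while TPO2 and TPO3 of the same family were 0.90 ± 0.13 and 0.88 ± 0.12. Of 29 cell wall genes 8 were higher and 2 lower (27.6% and 6.9%, against 10.8% and 7.39% of all genes tested). SPI1, SED1 (1.18 ± 0.13) and the glucan synthase gene GSC2 (0.89 ± 0.14) had the smallest p-values.

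Of genes that mark mating type and cell state, none of the 4 alpha-specific genes and none of the 24 genes of meiosis and sporulation passed, and none did at an unadjusted p under 0.05 (limma; counts of 0 and 0). Of 8 a-specific genes 2 were lower in MA-A3 (25%, against 7.39% of all genes tested), BAR1, which encodes the protease of alpha factor (-0.75 ± 0.14), and AGA2, an agglutinin subunit gene (-0.44 ± 0.13). The list as a whole was not lower: its median was 0.08 and 5 of the 8 lay above 0. MFA2, at 0.47 ± 0.16, did not pass. Of 22 haploid-specific and mating genes 3 were higher and 4 lower (13.6% and 18.2%, against 10.8% and 7.39% of all genes tested), with the pheromone-regulated genes PRM5 and PRM4 at -0.98 ± 0.14 and -0.92 ± 0.14. Without the direct array 1 a-specific gene was lower, and 2 haploid-specific and mating genes were higher and 2 lower. Copper genes had 1 of 9 higher (11.1%, against 10.8% of all genes tested) and none lower, and 0 and 0 without the direct array (limma, 0 and 0 at an unadjusted p under 0.05). In the DNA damage response 1 of 18 was higher and 2 lower (5.56% and 11.1%, against 10.8% and 7.39% of all genes tested), and without the direct array 0 were higher (limma, 1 at an unadjusted p under 0.05) and 2 lower. RNR1, the large subunit of ribonucleotide reductase, was 0.54 ± 0.15, the small subunit gene RNR4 was -0.72 ± 0.15 and HUG1 was -0.73 ± 0.17.

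**Figure D4:**
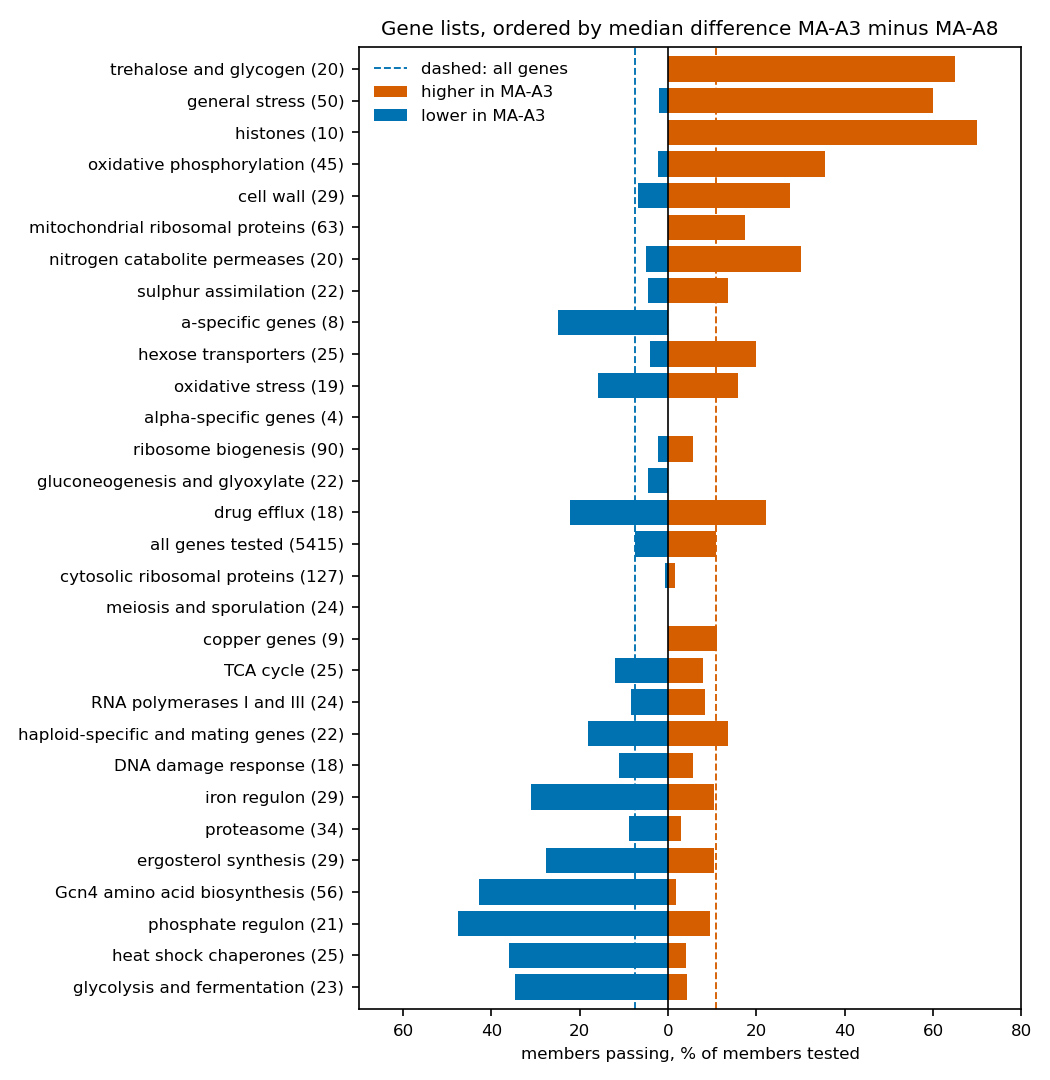
Share of the measured members of each of 29 gene lists, and of all genes tested, that were higher (orange, right) or lower (blue, left) in MA-A3 than in MA-A8, in percent of members tested, with the number tested in brackets and lists ordered by median difference. Dashed lines mark the shares of all genes tested, 10.8% higher and 7.39% lower; trehalose and glycogen, general stress and histone genes reach the furthest to the right, and phosphate regulon and Gcn4 genes the furthest to the left.

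Chromosome XIII was shifted as a whole. The median difference of its 427 genes was 0.57, a ratio of 1.49 if the base is 2, and 403 of the 427 were above 0. By route the median was 0.69 on the direct array, 0.42 through MA-A0, 0.51 through MA-A1 and 0.50 through MA-A4. Medians of the other nuclear chromosomes lay between -0.06 and 0.03. The 16 genes of the mitochondrial genome had a median of -0.25 and none passed (1 at an unadjusted p under 0.05). On chromosome XIII the shift lay between MA-A3 and the mean of MA-A0, MA-A1 and MA-A4 (median 0.55) and not between that mean and MA-A8 (0.03). Copy number of the chromosome was not measured on these arrays. Among the genes named for the largest positive differences, those on this chromosome were MSC1, TSL1, PGM2, HOR7 and GAD1. They exceeded the chromosome's median by 1.95, 1.88, 1.83, 1.68 and 1.46, in that order. These genes were picked for large differences, so their excess follows from the choice. It does not describe the other stress and storage genes there. The 301 genes of the chromosome that were higher became 316 without MA-A0/MA-A8 and 132 without the direct array, with medians of 0.59 and 0.52. Of its 11 genes that were lower HUG1 is the one that has a symbol.

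**Figure D5:**
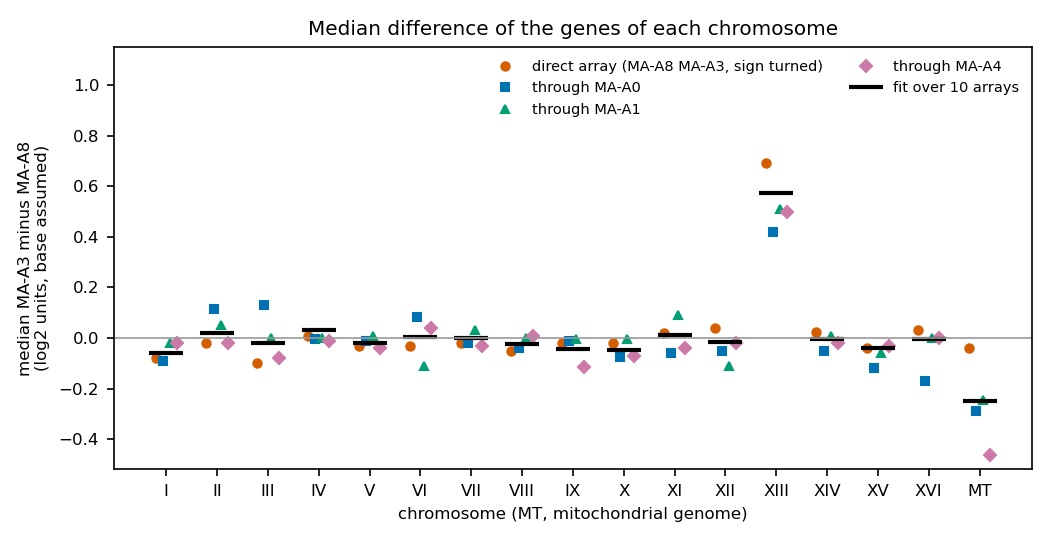
Median difference MA-A3 minus MA-A8 (y axis, log2 units, base assumed) of the genes of each nuclear chromosome and of the mitochondrial genome (MT), along the 4 routes (symbols) and in the fit (black bars). Chromosome XIII lies between 0.42 and 0.69 on every route, while the fitted medians of the other nuclear chromosomes lie between -0.06 and 0.03.

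Further genes with large negative differences were YDL241W, which has no symbol (-1.58 ± 0.14, with routes of -1.74, -1.39, -1.75 and -1.29), GPB1, which encodes a regulator that restrains protein kinase A (-1.19 ± 0.18), and DLD3, which encodes a cytosolic D-lactate dehydrogenase (-1.17 ± 0.15). YAR009C, also without a symbol, was -1.30 ± 0.18, with routes of -1.23, -0.21, -1.55 and -2.28. GPB1 stood at -1.19 in MA-A3, -1.01 in MA-A0, -0.21 in MA-A1 and -0.80 in MA-A4 relative to MA-A8.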

How the data were processed

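The deposited table holds 1 log2 value per probe row and array, the base being assumed. Neither the submitters' processing notes nor the labels used here state the scanner, background subtraction, spot filtering or normalization by the authors, and array signals were not analysed here. Array medians ran from -0.84 to 0.41, so each array was centred on its median. Of 7744 probe rows 872 were empty, 6282 to 6824 had a value per array, and 6116 name a gene (6111 matched to the R64 annotation by gene ID, used for symbols, lengths and chromosomes). Rows of one gene were averaged, and a gene was tested if at least 8 arrays held a value for it.

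The model for each gene, fitted by limma 3.58.1 under R 4.3.3, held 2 kinds of term (Cy5 line minus Cy3 line plus dye, 5 residual degrees of freedom, prior of 9.19, median residual SD 0.205), with Benjamini-Hochberg adjusted p-values over 5415 genes and a threshold of 0.05. The direct array was compared with routes through the other lines, and MA-A3 and MA-A8 with the mean of the other 3 lines. Genes measured on fewer than 10 arrays enter with those they have (XBP1, GAC1 and PUT4 had 9). Named genes are the 14 largest passing differences each way with all 10 values and the same sign on all 4 routes, and, per list, the 3 members of smallest p among those with all 10 values. Further list members are named for their role, and were chosen after their values were seen. The pair, the members and the 29 lists were chosen with earlier results of these data known, so counts per list are descriptions, and no list was tested as a set. No sequences were used here.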

Additional observations from a re-analysis of the deposited data

Results flagged for a closer look

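In 73 sets of 4 route values (the 28 genes at either end, the 29 list medians and the 16 nuclear chromosome medians), 8 held a route that lay far from the other 3 (by Dixon's ratio). For 4 independent values of equal spread, chance flags about 1 such set in 20. The routes differ in their number of arrays and in dye effect, and the 28 genes were picked for the same sign on all routes. That rate may therefore not hold here. The lone route of MSC1 was the 1.87 through MA-A1, and that of PHO11 the -0.37 through MA-A0. For trehalose and glycogen genes the median of 0.89 on the direct array lay above the others, and for the phosphate regulon the median of -0.54 on the direct array lay below them. The 4 alpha-specific genes had a median of 0.29 through MA-A0. The chromosome medians set apart were 0.03 on VII through MA-A1, -0.115 on IX through MA-A4 and -0.17 on XVI through MA-A0. Of the 8, 3 were on the route through MA-A0, which holds the MA-A0/MA-A8 array. The part of that array in them was not tested.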

How the results depend on the processing

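No paired analysis was possible because no pair of lines was hybridised more than once. The numbers of passing, higher, lower and higher general stress genes (983, 583, 400 and 30) were 112, 73, 39 and 19 with values as deposited, 470, 322, 148 and 16 with an unmoderated test, and 456, 193, 263 and 18 with chromosomes IX, XI, XII and XIII left out, an alternative that removes genes. Lower genes numbered 262 without the dye term and 259 without it and without MA-A0/MA-A8, a setting chosen after seeing the data. Leaving out 1 array gave 457 to 1108 passing, 242 to 647 higher, 215 to 461 lower and 19 to 31 higher stress genes. Of 93 passing named genes 31 passed under all 23 alternatives that tested them, and of the 28 at either end 23 did, the other 5 failing only with the unmoderated test. Signs turned for 4 genes, none of which had passed: CUP1-2 (-0.36 to 0.11 over the arrays left out, above 0 without the direct array), STE3 (-0.23 to 0.0028, above 0 without MA-A4/MA-A8), and ADR1 at -0.028 and MFA2 at -0.17 with MA-A0/MA-A8 turned. The correlation of the direct array with the other 9 ran from 0.63 to 0.76. The causes were not tested. The number of arrays limits the precision.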

Other observations

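Genes on which MA-A8 rather than MA-A3 departed from MA-A0, MA-A1 and MA-A4 were chosen after their values were seen. Among the 14 genes higher in MA-A8 than the mean of those 3 lines were the multidrug pump gene PDR5, for which that mean minus MA-A8 was -0.71 ± 0.14, and RSB1, which encodes a transporter of sphingoid bases (-0.62 ± 0.13). SNZ2 and SNZ3, near-identical genes of the vitamin B6 synthesis family that probes may not tell apart, stood at -0.70 ± 0.12 and -0.60 ± 0.10, and SNO2 of the same family at -0.57 ± 0.11. CIS1 stood at -0.94 ± 0.13. For HUG1, CIS1, SNZ2, SNZ3 and SNO2 MA-A3 did not differ from the mean of the 3 lines (limma, adjusted p between 0.20 and 0.83).

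A set of long genes without a symbol was lower in MA-A3, also chosen after its values were seen. Of the genes tested, 37 without a symbol in the R64 annotation are 4816 to 5383 bases long, 23 of them exactly 5269, on 13 chromosomes. Of the 37, 36 were lower in MA-A3 than in MA-A8 (97.3%, against 7.39% of all genes tested) and none was higher, with a median of -1.06. The 36 are part of the 400 genes that were lower. YGR161W-B (-1.24 ± 0.21), YER160C (-1.18 ± 0.18) and YDR098C-B (-1.18 ± 0.19) of this set are also among the 14 named for the largest negative differences. Other genes without a symbol had 64 of 452 lower and 41 higher, with a median of -0.04. The median of the 37 was -0.98 on the direct array, -0.18 through MA-A0, -1.24 through MA-A1 and -1.85 through MA-A4. Between MA-A3 and the mean of the other 3 lines it was -0.91, and between that mean and MA-A8 it was -0.15. Without the MA-A0/MA-A8 array the count was again 36 and the median -1.13. Genes of equal length may share sequence that the probes do not tell apart, which was not tested, so the 37 are not independent.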
